A study of Ictidomys tridecemlineatus with 31 samples.

Results

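The genes described here are 10 chemokine and leukocyte genes, followed in kidney RNA of Ictidomys tridecemlineatus, a ground squirrel that hibernates. They are the chemokine ligands Cxcl16, Ccl16, Cxcl12, and Cx3cl1, the macrophage growth factors Csf1 and Il34, and the leukocyte genes Cd79a, Cd74, Ptprc, and Stat4. Members were found in the table by their gene symbol, and had a symbol stood on several rows, the row of highest mean would have been taken. Each member found stood on 1 row, so no measured value decided which row was used. Of the 10 members, 8 were among the 12863 genes of the table, and Il34 and Ptprc were not found under any of the table's names. The files' names and identifiers for the 8 are Cxcl16 (gene19854), Ccl16 (gene5243), Cxcl12 (gene16921), Cx3cl1 (gene2257), Csf1 (gene20556), Cd79a (gene20616), Cd74 (gene7666), and Stat4 (gene7860).

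Chemokines are small secreted proteins that guide leukocytes along a gradient, and the kidney's own tubule, endothelial, and stromal cells make several of them. Cxcl16 and Cx3cl1 are unusual in being made as membrane proteins that hold leukocytes at a cell's surface until proteases release a soluble form. Csf1 is the growth factor on which macrophages depend through the receptor Csf1r, and Cd74 is the invariant chain that escorts MHC class II proteins in antigen-presenting cells. Cd79a is part of the B cell receptor complex, and Stat4 carries the signal of interleukin 12 into the nucleus of T and natural killer cells.

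The 31 kidneys came from 6 states, each kidney from 1 animal. Of the active states, summer active (SA, n = 5) was sampled during late summer fattening, and in spring dark (SpD, n = 5) animals were warm again after their last torpor bout but still in the hibernaculum. The 4 states of the hibernation season were interbout aroused (IBA, n = 5), warm shortly after rewarming, entrance into torpor (Ent, n = 5), cooling, early arousing (EAr, n = 5), cold and beginning to rewarm, and later arousing (LAr, n = 6), midway through rewarming. Females (17) and males (14) were in every state, no animal carried a genetic change or received a drug by the labels, and all had been implanted with temperature devices. Animals were perfused through the heart with cold buffer before dissection, and a fragment of each kidney was used, and the labels do not give the shares of cortex and medulla in a fragment. Experiment 1 (9 animals, 3 each of IBA, Ent, and SpD) and experiment 2 (22 animals) used different library kits, so SA, EAr, and LAr came from experiment 2 alone.

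Each value is a batch-corrected rlog value, a normalized count on the log2 scale, so that a difference of 1 is a 2-fold difference between animals for the same gene. Values are not scaled to transcript length, and levels are therefore compared between animals and never between genes. Read depths are unknown, so no counting error is given and precision rests on the spread between animals. In a piece of whole kidney, fewer cells of a type and less RNA per cell cannot be told apart. The limma fit used 29 animals, without K113 (LAr) and K137 (SA), which the study also left out of its own test. K113 and K137, and K130 (SpD), which stayed in the fit, stood apart from their groups and are shown separately. Of all genes, K113 lay above every other animal of its state at 35.6% and below at 37.2%, K137 above at 33.9% and below at 29.5%, and K130 above at 32.7% and below at 28.4%.

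Over the 6 states, the F test called 2 of the 8 members at q under 0.001, Cxcl16 and Ccl16, against 9.34% of all genes. The members, and the lists of other genes used below, were chosen with earlier results of these data known. Their counts beside shares of all genes, here and below, are therefore descriptions. At q under 0.05, 6 members were called, against 46.1% of all genes, and Cd79a (q = 0.18) and Stat4 (q = 0.308) were not. Ccl16 differs from the other members in how it came to be in the table. The authors' filter asked for a value of 7 or more in 4 animals of the same state, and on the table's values Ccl16 met this in SA only, whereas the other 7 members met it in all 6 states. A gene that entered through the group where it was high had to differ, so the test of Ccl16 supports nothing beyond its values, and the members whose presence did not depend on 1 group gave 1 call at q under 0.001 and 5 at q under 0.05.

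**Figure D1:**
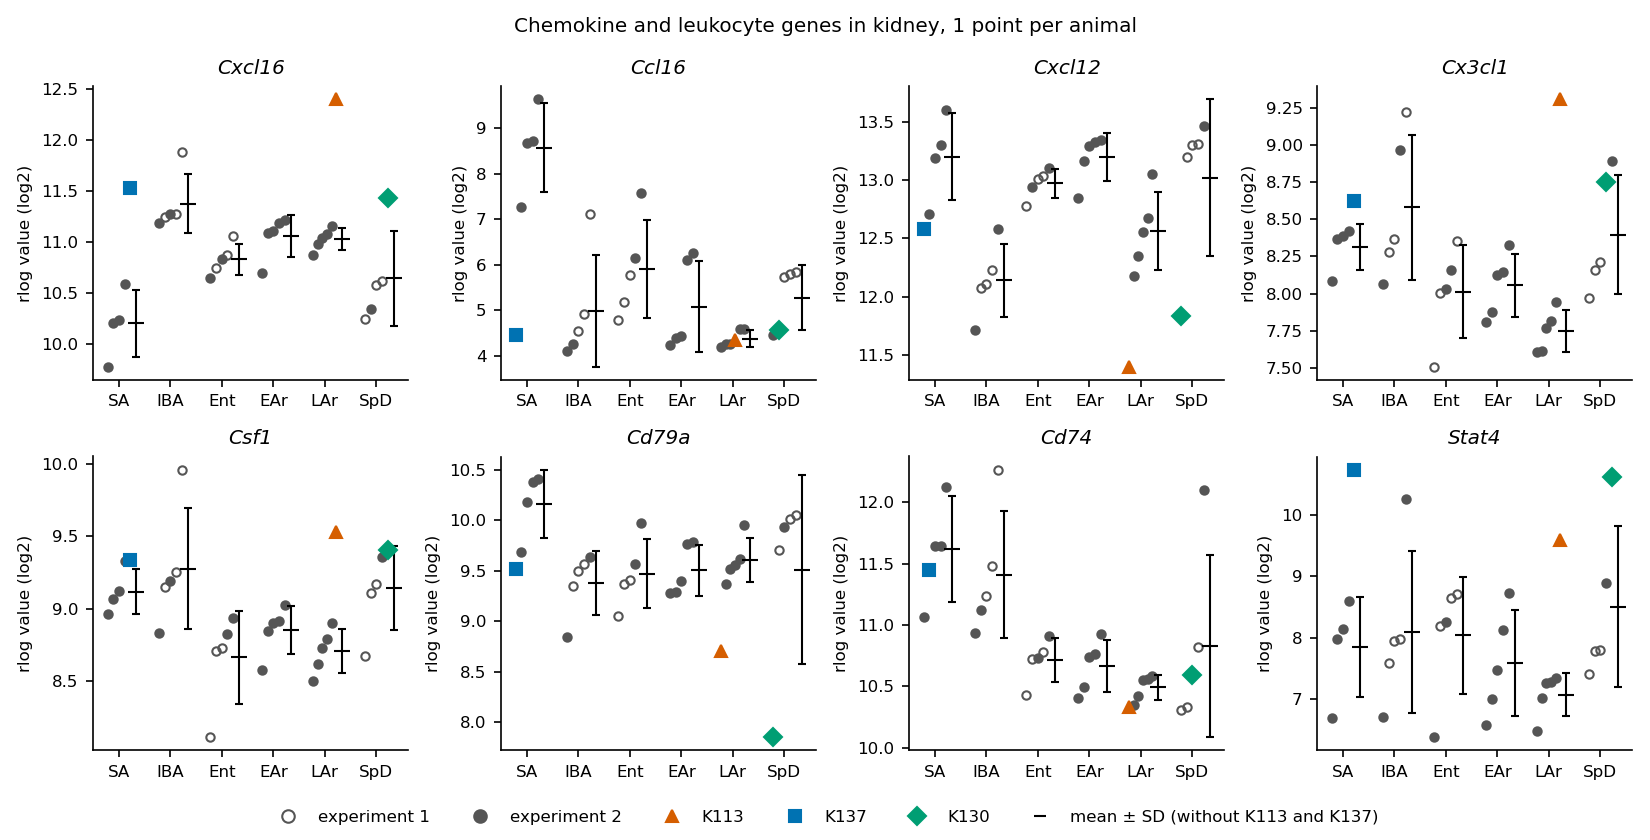
Batch-corrected rlog values (log2, vertical axis) of the 8 members in each of the 31 animals by state, with open circles for experiment 1, filled circles for experiment 2, and the mean ± SD of the 29 animals of the fit. In the animals of the fit Cxcl16 had its lowest state mean in SA and its highest in IBA, Ccl16 was high in 4 SA animals, and K113, K137, and K130 were the highest animals of their states for Stat4.

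Cxcl16, a ligand held on the cell surface that draws T and natural killer cells and also takes up oxidized lipoprotein, had its lowest state mean in SA and its highest in IBA. The 4 SA animals of the fit had Cxcl16 values of 9.78, 10.21, 10.24, and 10.59, and the 5 IBA animals had 11.19, 11.25, 11.27, 11.28, and 11.88. None of these 4 SA values reached the lowest IBA value, whereas K137, also SA, stood at 11.52. Ent ran from 10.64 to 11.06, EAr from 10.70 to 11.21, and LAr from 10.88 to 11.16 without K113, which stood at 12.39, all above the 4 SA animals of the fit, whereas SpD ran from 10.25 to 10.62 in 4 animals with K130 at 11.43. Cxcl16 rose from SA to IBA by 1.21 ± 0.18 (log2 difference ± SE, 2.32-fold, q = 7.27e-05), and it was higher than SA by 0.85 ± 0.16 in LAr (q = 0.000568) and by 0.83 ± 0.16 in EAr (q = 0.000809). These contrasts share the same 4 SA animals. The call in EAr was lost in 18 of 29 fits that left out 1 animal, with q up to 0.00557 without K139, and that in LAr in 7 of 29, with q up to 0.00483 without K139. The call in IBA was lost in none, with q of at most 0.000553. After IBA the values were lower again, by 0.54 ± 0.15 in Ent (log2 difference of Ent minus IBA -0.54, q = 0.022) and by 0.73 ± 0.15 in SpD (SpD minus IBA -0.73, q = 0.00334). Those last 2 differences did not pass the threshold of 0.001, although SpD minus IBA was -0.92 (q = 7.69e-05) when K130 was left out. The 4 hibernation states together were 0.65 ± 0.10 above SA and SpD together (q = 3.01e-05).

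In order of the state means, Cxcl16 stood at 11.37 in IBA, 11.06 in EAr, 11.03 in LAr, 10.83 in Ent, 10.65 in SpD, and 10.21 in SA. No 2 neighbours in this order differed at q under 0.05, the nearest being SpD and SA (q = 0.0787). Within each experiment Ent lay below IBA, with log2 differences of -0.575 in experiment 1 and -0.49 in experiment 2. SpD minus IBA was -0.984 in experiment 1 and -0.343 in experiment 2, where 1 of the 2 SpD animals was K130. SA was sequenced in experiment 2 only, and within that experiment the test across states gave Cxcl16 a q of 0.00171. With K113 and K137 in the fit, q across states was 0.0403 and IBA exceeded SA by 0.92 (q = 0.0415).

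A list of ligand processing genes, among them proteases that release Cxcl16 and Cx3cl1, had 8 of 8 genes in the table. Of the 8, 6 had q under 0.05 across states, against 46.1% of all genes. Adam17, a sheddase of both ligands, was the 1 called at 0.001 (q = 0.000717), with state means from 9.01 in LAr to 9.52 in IBA and a log2 difference of 0.61 for IBA minus LAr (q = 0.000504). Adam10, the other main sheddase, had state means from 10.93 in LAr to 11.23 in Ent (q = 0.032). The iRhom genes Rhbdf2 and Rhbdf1, whose proteins carry Adam17 to the cell surface, were 0.71 (q = 0.00668) and 0.57 (q = 0.0109) higher in IBA than in SA. Cxcr6, the receptor of Cxcl16, and Cx3cr1, the receptor of Cx3cl1, were not among the table's genes.

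Ccl16, a liver-type chemokine that attracts monocytes and lymphocytes, was high in 4 SA animals and near the bottom of the table elsewhere. The SA values were 7.27, 8.67, 8.73, and 9.64 in the fit, and K137, also SA, stood at 4.45. The IBA values were 4.11, 4.25, 4.55, 4.91, and 7.11, the Ent values 4.79, 5.19, 5.78, 6.16, and 7.59, and the EAr values 4.22, 4.38, 4.44, 6.10, and 6.25. The SpD values were 4.45, 4.55, 5.74, 5.80, and 5.84. All 6 LAr animals, K113 among them, lay between 4.19 and 4.59. Only 6 of 31 animals reached 7, namely 4 of SA with K4 of IBA and K167 of Ent. In 18 of 31 animals Ccl16 held the lowest value of any gene, the table's minimum of 4.109 was its value in an IBA animal, and no gene had a lower mean.

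Ccl16 fell from SA, with log2 differences of -3.76 ± 0.66 in IBA (q = 0.000389), -3.52 ± 0.60 in EAr (q = 0.000221), and -4.18 ± 0.60 in LAr (q = 3.03e-05). Because Ccl16 entered the table through SA alone, its q values and calls in this paragraph are a description and support nothing further. The differences of SA from Ent (Ent minus SA -2.85, q = 0.00639) and from SpD (SA minus SpD 3.47, q = 0.00489) missed the threshold. SA and Ent, the highest 2 of the state means at 8.58 and 5.90, were the only neighbours in the order that differed at q under 0.05. Values this low lie where rlog shrinks low counts, and the size of each fold is therefore uncertain. The call in IBA was lost without K104, K171, K139, K140, or K141 (q up to 0.00317), and that in EAr without K139, K140, or K156 (q up to 0.00181). The call across states was lost without SA animal K139 (q = 0.00128), K140 (q = 0.00154), or K141 (q = 0.0012), and with K113 and K137 included (q = 0.00603).

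Cxcl12, the homeostatic chemokine of stromal and tubule cells, had its lowest state mean in IBA. SA values of the fit were 12.71, 13.19, 13.30, and 13.60, IBA values 11.71, 12.07, 12.11, 12.23, and 12.58, and Ent values 12.77, 12.94, 13.01, 13.03, and 13.10. The IBA group overlapped neither these 4 SA animals, nor Ent, nor EAr (12.85 to 13.35), whereas K137, also SA, stood at 12.58 and within the IBA range. LAr ran from 12.18 to 13.05, with K113 at 11.40, and SpD from 13.19 to 13.47 in 4 animals, with K130 at 11.83. Cxcl12 was 1.18 ± 0.27 lower in IBA than in SA (IBA minus SA -1.18, q = 0.00346), 1.18 ± 0.26 lower than in EAr (EAr minus IBA 1.18, q = 0.00362), 0.83 ± 0.23 lower than in Ent (Ent minus IBA 0.83, q = 0.0195), and 0.88 ± 0.23 lower than in SpD (SpD minus IBA 0.88, q = 0.014). None of these passed 0.001 and neither did the test across states (q = 0.00345). Without K130, q across states was 4.9e-05, IBA minus SA was -0.99 (q = 0.000998), SpD minus IBA was 1.2 (q = 9.54e-05), and the hibernation states lay 0.55 below SA and SpD (-0.55, q = 0.000421). In that fit EAr minus SA was only -0.012 (q = 0.969) and Ent minus SA -0.157 (q = 0.647). In experiment 2 alone, q across states was 0.0719, and the hibernation states minus SA and SpD came to -0.206 (q = 0.479). With all 31 animals these were 0.00793 and -0.37 (q = 0.0868). Ent exceeded IBA by 0.802 in experiment 1 and 0.877 in experiment 2, and SpD exceeded IBA by 1.131 and 0.504.

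The Cxcl12 scavenger receptor Ackr3 had state means from 10.08 in SpD to 10.59 in LAr (q = 0.051). Ackr4, which scavenges other chemokines, had means from 7.56 in IBA to 8.14 in Ent (q = 0.0177) and was 0.61 lower in IBA than in SA (-0.61, q = 0.0135). These were the only 2 of 23 listed chemokine receptors in the table. Of 48 listed ligand names, some of them used in mouse or in human only, 7 were in the table. Beside the 4 members these were Ccl19 (q = 0.0189 across states), Cxcl14 (q = 0.0674), and Ccl21 (q = 0.143), named here after their values were seen.

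Cx3cl1, the surface ligand also called fractalkine, had its lowest state mean in LAr. The 5 LAr animals of the fit had Cx3cl1 values of 7.61, 7.61, 7.77, 7.81, and 7.94, and the IBA animals had 8.06, 8.28, 8.37, 8.97, and 9.23. Among the animals of the fit the groups did not overlap, and neither did LAr overlap SA (8.09 to 8.42) or SpD (7.97 to 8.90), whereas K113, also LAr, stood at 9.31, above all of them. Cx3cl1 was 0.97 ± 0.21 higher in IBA than in LAr (q = 0.00321) and 0.79 ± 0.21 higher in SpD than in LAr (q = 0.0115). It was lower than IBA by 0.57 ± 0.19 in Ent (-0.57, q = 0.0462) and by 0.64 ± 0.21 in EAr (-0.64, q = 0.0372). Across states q was 0.00746, or 0.000411 without IBA animal K171, the lowest of its group. With all 31 animals, in which K113 adds the highest Cx3cl1 value of the series to LAr, q was 0.176.

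Csf1, the macrophage growth factor, had state means between 8.67 in Ent and 9.28 in IBA. IBA values were 8.83, 9.15, 9.20, 9.26, and 9.96, and Ent values were 8.12, 8.71, 8.73, 8.83, and 8.94. These groups overlapped only between the lowest IBA and the highest Ent values. Csf1 was 0.61 ± 0.17 lower in Ent than in IBA (-0.61, q = 0.0193) and 0.63 ± 0.19 higher in IBA than in LAr (q = 0.0228), and q across states was 0.0158. Ent lay below IBA by 0.935 in experiment 1 (-0.935) and by 0.132 in experiment 2 (-0.132). Csf1r, the receptor and a macrophage marker, had state means from 7.76 in LAr to 8.84 in SA (q = 0.00625), and it was 1.02 higher in IBA than in LAr (q = 0.00828). The 2 IBA animals of experiment 2 had Csf1r values of 8.20 and 8.24, beside 7.50 to 8.14 in LAr. K7 of IBA, in experiment 1, had 9.45. Between Ent and IBA, 4 members had q under 0.05, Cxcl16, Cx3cl1, and Csf1 lower and Cxcl12 higher in Ent, against 13.1% of all genes. Between IBA and LAr, 3 members did, Cx3cl1, Csf1, and Cd74, each higher in IBA, against 18% of all genes. In experiment 2 alone, the only one with LAr, IBA minus LAr was 0.708 for Cx3cl1 (q = 0.0295), 0.29 for Csf1 (q = 0.196), and 0.499 for Cd74 (q = 0.326).

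**Figure D2:**
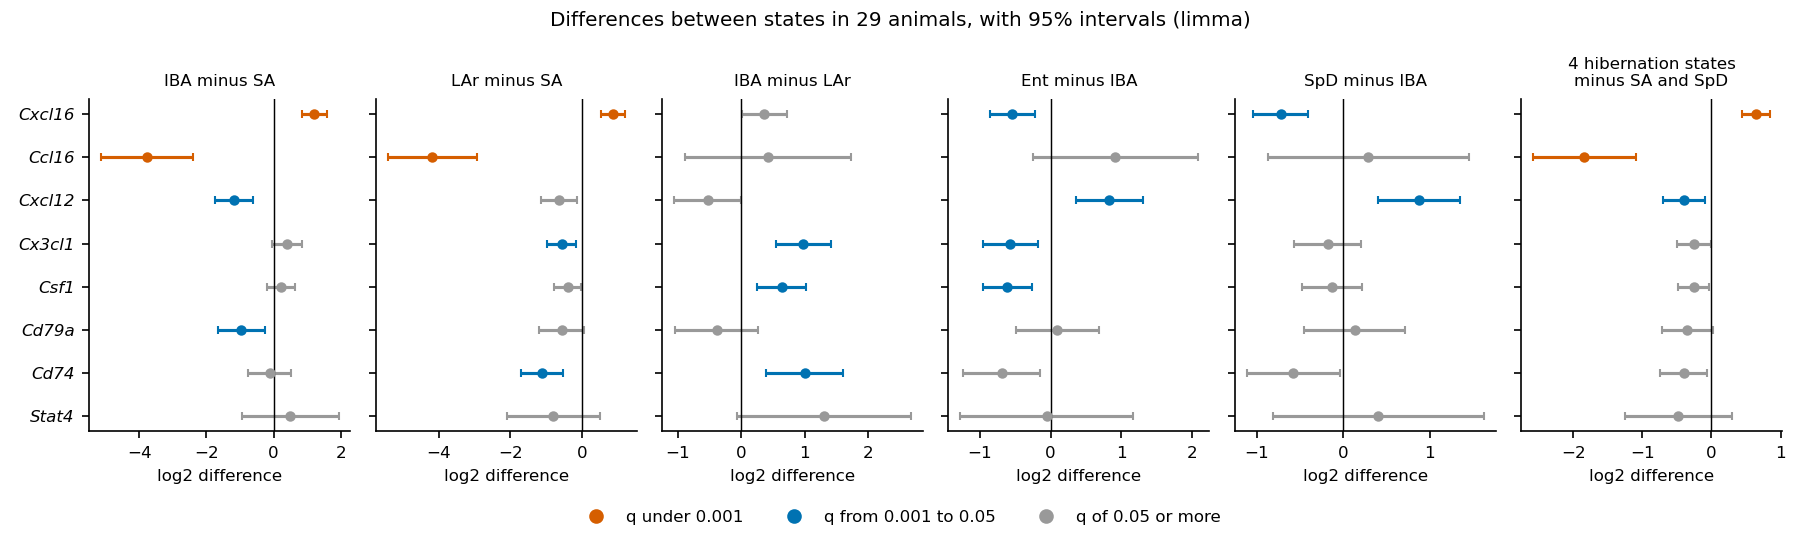
Log2 differences (horizontal axis) of the 8 members between states in 29 animals, with 95% intervals, in orange for q under 0.001, blue for q from 0.001 to 0.05, and gray for q of 0.05 or more. Cxcl16 lay above 0 and Ccl16 below 0 against SA in IBA and LAr, and Cx3cl1, Csf1, and Cd74 lay above 0 in IBA against LAr.

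Cd74, the invariant chain of MHC class II, had its highest state means in SA (11.62) and IBA (11.41). SA values were 11.06, 11.64, 11.65, and 12.13 and IBA values 10.94, 11.12, 11.24, 11.48, and 12.27. Ent ran from 10.43 to 10.91, EAr from 10.40 to 10.93, and LAr from 10.35 to 10.58 (10.33 in K113), none reaching the lowest SA or IBA value. In SpD, 4 animals lay between 10.30 and 10.82 and K84 stood at 12.10. Cd74 was 1.12 ± 0.28 lower in LAr than in SA (-1.12, q = 0.00453), 0.96 ± 0.28 lower in EAr than in SA (-0.96, q = 0.0143), and 2.003-fold higher in IBA than in LAr (q = 0.0212), a log2 difference that was 0.499 (q = 0.326) in experiment 2 alone. Its q across states was 0.00768, and with 1 animal left out it ran from 0.000192, without K84, to 0.0215. In experiment 2 alone that q was 0.0107. Between SpD and IBA, the 2 experiments gave opposite signs, -1.178 in experiment 1 and 0.317 in experiment 2, the latter with K84 as 1 of 2 SpD animals.

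MHC class II genes stand beside Cd74 in antigen presentation. Of 32 listed names, which include both human and mouse names of such genes, 13 were in the table, Cd74 among them. Of the 13, 9, again with Cd74, had q under 0.05 across states, against 46.1% of all genes. The median difference of IBA minus LAr over the 13, Cd74 included, was 0.78, against -0.01 over all genes. Ifi30, a lysosomal thiol reductase that prepares antigens, was the 1 called at 0.001 (q = 0.000685), and its order was another, with means from 11.10 in SpD to 11.68 in LAr. HLA-DRB1 and HLA-DQA1, chains of the MHC class II dimer, were 1.15 (q = 0.00912) and 1.11 (q = 0.014) higher in IBA than in LAr. Their LAr means, all from experiment 2, were 7.212 and 7.015. The 2 IBA animals of experiment 2 had 7.89 and 7.91 for HLA-DRB1 and 7.66 and 7.52 for HLA-DQA1. K7 of IBA, in experiment 1, had 9.15 and 9.11. Rfxap, a subunit of the factor that switches these genes on, had means from 7.21 in Ent to 7.53 in IBA (q = 0.00709). MHC class II genes are near-identical copies of each other in part, and reads shared between them could have been split by the authors' quantification, so single chains are uncertain.

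Cd79a, the B cell receptor chain, had its highest state mean in SA, with values in the fit of 9.68, 10.19, 10.38, and 10.41 beside 8.84, 9.35, 9.50, 9.57, and 9.63 in IBA. These groups did not overlap, whereas K137, also SA, stood at 9.52 and within the IBA range. IBA lay 0.96 ± 0.33 below SA (-0.96, q = 0.0408). Ent ran from 9.05 to 9.98, EAr from 9.28 to 9.79, and LAr from 9.37 to 9.96. SpD ran from 9.71 to 10.06 in 4 animals, and K130 stood at 7.85, the lowest of the series. Without K130, q across states was 0.00847 in place of 0.18, and the hibernation states lay 0.57 ± 0.11 below SA and SpD (-0.57, q = 0.000496). With all 31 animals, q across states was 0.322, and the hibernation states lay 0.31 below SA and SpD (-0.31, q = 0.207). IBA minus SA was then -0.82 (q = 0.117), and it was -1.02 (q = 0.0866) in experiment 2 alone. Cd79b, the partner chain, was not among the table's genes.

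Of 16 listed B lineage genes 5 were in the table, Cd79a and 4 others, and those 4 had q under 0.05 across states, against 46.1% of all genes. Mzb1 and Jchain, which serve antibody assembly in plasma cells, were both called (q = 0.000163 and 0.000605). Jchain values in SA ran from 10.34 to 12.65, with K137 at 11.08, while LAr ran from 8.23 to 8.47 and EAr from 8.42 to 8.75. The exceptions outside SA were K7 of IBA at 11.82 and K84 of SpD at 11.12, the same 2 animals with the highest Cd74 of their states. Jchain was 2.65 higher in SA than in SpD (q = 0.0105) and 1.97 lower in IBA than in SA (-1.97, q = 0.019). Mzb1 lay 1.14 lower in the hibernation states than in SA and SpD (-1.14, q = 9.42e-06), from a mean of 7.74 in SA to 6.22 in EAr. Blnk, an adaptor, and Btk, a kinase of the B cell receptor, had smaller spreads of their state means, from 8.84 in SpD to 9.56 in IBA (q = 0.00444) and from 7.10 in IBA to 7.47 in SpD (q = 0.016).

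**Figure D3:**
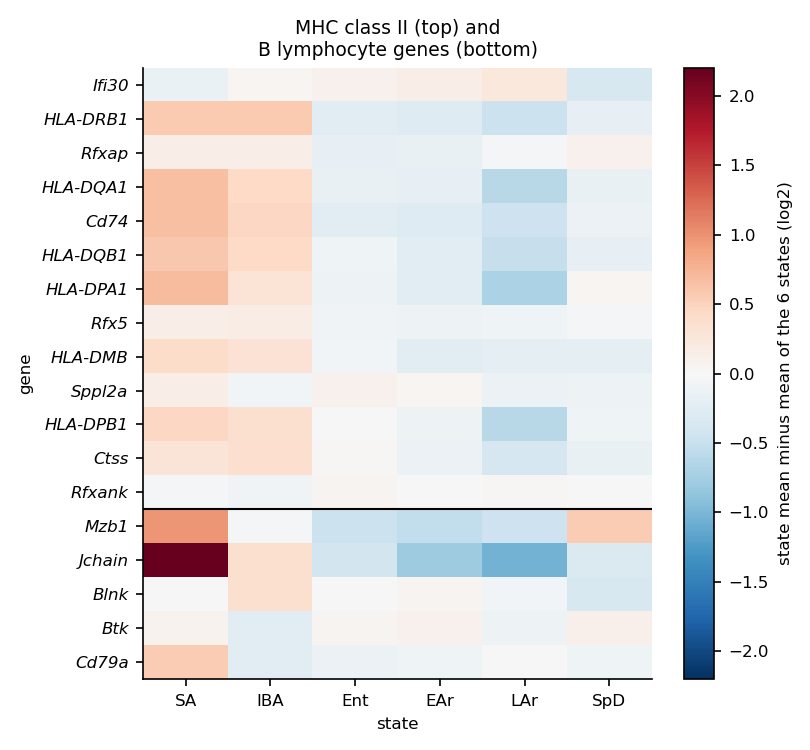
State means minus the mean of the 6 states (log2, color) of the genes of 2 lists found in the table, MHC class II at the top and B lymphocyte at the bottom. Most MHC class II genes were higher in SA and IBA than in LAr, and Jchain, with state means from 8.34 in LAr to 11.57 in SA, had the widest range.

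Stat4 varied widely between animals of the same state. LAr values were 6.49, 7.02, 7.27, 7.28, and 7.34, and IBA values were 6.71, 7.59, 7.96, 7.98, and 10.26. SA ran from 6.69 to 8.60, Ent from 6.39 to 8.72, EAr from 6.59 to 8.74, and SpD from 7.41 to 8.90 in 4 animals with K130 at 10.62. No contrast between states had q under 0.05. The largest difference was SpD minus LAr, 1.71 with a 95% interval of 0.34 to 3.08 (q = 0.0716), and IBA minus SA was 0.50 with an interval of -0.94 to 1.94. Without K130, SpD minus LAr was 0.73 (q = 0.529), below IBA minus LAr at 0.97 (q = 0.256). Ent and SpD differed from IBA with opposite signs in the 2 experiments (Ent minus IBA 0.679 in experiment 1 and -1.162 in experiment 2).

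The STAT4 pathway list had 18 of 28 genes in the table, 7 with q under 0.05, against 46.1% of all genes. Socs3, a feedback inhibitor of STAT signaling, ran from 7.57 in EAr to 8.89 in LAr (q = 4.98e-05), and Irf1, a factor induced by interferon, was 0.74 lower in Ent than in IBA (-0.74, q = 0.00154) with q = 0.000265 across states. Ifngr2, a chain of the interferon gamma receptor, and Stat3 had q values of 0.00352 and 0.00964. None of the 28 listed T lymphocyte and natural killer cell genes, in which Stat4 is best known, was in the table.

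Against SA, Cxcl16 and Ccl16 were the 2 members called at q under 0.001 in IBA (3.15% of all genes), EAr (4.49%), and LAr (5.47%), always with Cxcl16 higher and Ccl16 lower. They were also the 2 called between the 4 hibernation states and the 2 active states, against 9.73% of all genes. Since Ccl16 entered the table only through SA, its calls in these contrasts are a description, and Cxcl16 alone gave 1 call among the other 7 members in each. At q under 0.05 Cxcl12 and Cd79a joined them in IBA minus SA, both lower in IBA, against 22.9% of all genes. No member differed between females and males at q under 0.05, against 0.218% of all genes. The lowest q for sex was that of Cxcl16, 0.26 lower in females (female minus male -0.26, q = 0.571). The experiment term had q of at least 0.87 for every member. The batch effect had been removed from the values before the fit, so this term cannot show whether experiment affected these genes.

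K113 lay outside the other animals of its state for 7 of the 8 members, K137 for 7, and K130 for 5, against 72.9%, 63.4%, and 61.1% of all genes. All 3 lay outside in the same direction for 5 of the 8, against 27.3% of all genes. Cxcl16 was 12.39 in K113, 11.52 in K137, and 11.43 in K130, above the other animals of each state by at least 0.81. Stat4 was 9.59, 10.73, and 10.62, which is 2.51, 2.88, and 2.65 above the mean of the other LAr, SA, and SpD animals. Csf1 was also the highest of its state in all 3, by 0.63, 0.01, and 0.05. Cxcl12, at 11.40, 12.58, and 11.83, and Cd79a, at 8.71, 9.52, and 7.85, were the lowest of their states. Ccl16 was within its group in K113 (4.34) and K130 (4.55) and below it in K137. Cx3cl1 was above the others in K113 (9.31) and K137 (8.62) and within SpD in K130 (8.75). Cd74 lay within its group in K137 (11.45) and K130 (10.59) and just under it in K113 (10.33, with the lowest of the others at 10.35).

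**Figure D4:**
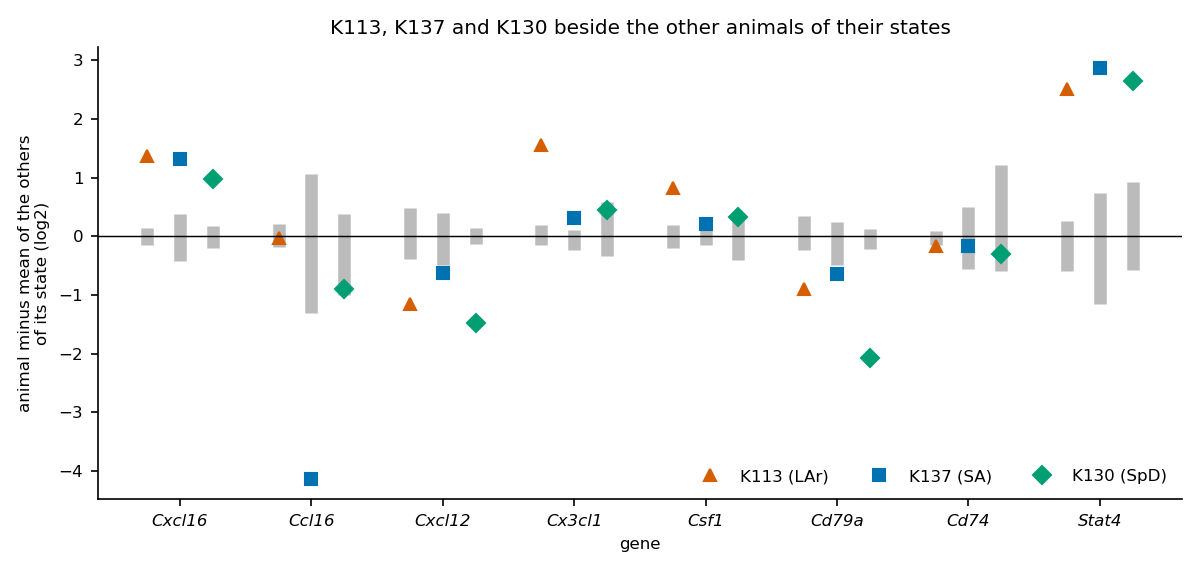
Value of K113, K137, and K130 minus the mean of the other animals of the same state (log2, vertical axis) for each member, with gray bars for the range of those other animals. Stat4 was 2.51 to 2.88 above the mean and Cxcl12 and Cd79a below it in all 3 animals, and K137 was apart from the other SA animals for Ccl16 (-4.13).

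Kidney cell markers moved in the same animals. Slc14a2, the urea transporter of the inner medullary collecting duct, was 12.87 in K113, against 6.31 to 6.91 in the other LAr animals, 13.51 in K137, against 6.17 to 10.43, and 12.99 in K130, against 8.38 to 11.82. Aqp2, the collecting duct water channel, was above its group in all 3, by 1.14, 1.48, and 1.11, but of 13 collecting duct markers 5 lay above and 8 below in K113, 5 and 8 in K137, and 8 and 4 in K130. Lrp2, the proximal tubule endocytic receptor, was below in all 3 by at least 0.90. Clu was 15.64, 16.05, and 13.05, above its group each time. Over whole lists, 12 of 12 proximal tubule markers lay below the group in K113, 11 of 12 in K137, and 9 of 12 in K130. Of 10 inner medulla markers 8 lay above the group in K113, 8 in K137, and 5 in K130, and of 13 endothelial markers 10, 10, and 12. Of 11 macrophage and dendritic cell markers 3 lay above and 4 below in K113, 2 and 1 in K137, and 2 and 3 in K130. The part of these markers in the members' values was not tested.

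The same markers moved with the members among the other animals too. Over the 29 animals of the fit, Cd79a had a Pearson's r of 0.81 and a Spearman's rho of 0.76 with the mean of 12 proximal tubule markers, and r was 0.71 without the 2 animals farthest from the median and 0.88 in the 20 animals of experiment 2. Its r with the mean of 11 macrophage and dendritic cell markers was 0.28. Cxcl16 went the other way, with r = -0.72 for the proximal tubule mean (-0.71 without the 2 farthest animals, -0.70 in experiment 2), and Cxcl12 had r = 0.70, which was 0.56 without the 2 farthest animals. Stat4 had r = 0.89 with the mean of 10 inner medulla markers and -0.02 with the macrophage and dendritic cell mean. Cx3cl1 had r = 0.78 with the inner medulla mean, and Csf1 had r = 0.73 with the mean of 13 endothelial markers. Cd74 had r = 0.95 with the mean of the other 12 MHC class II genes, 0.89 with the macrophage and dendritic cell mean, and -0.03 with the proximal tubule mean. These are descriptions over animals that also share states and experiments, chosen from 64 relations of 8 members with 8 lists, and they were not tested.

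**Figure D5:**
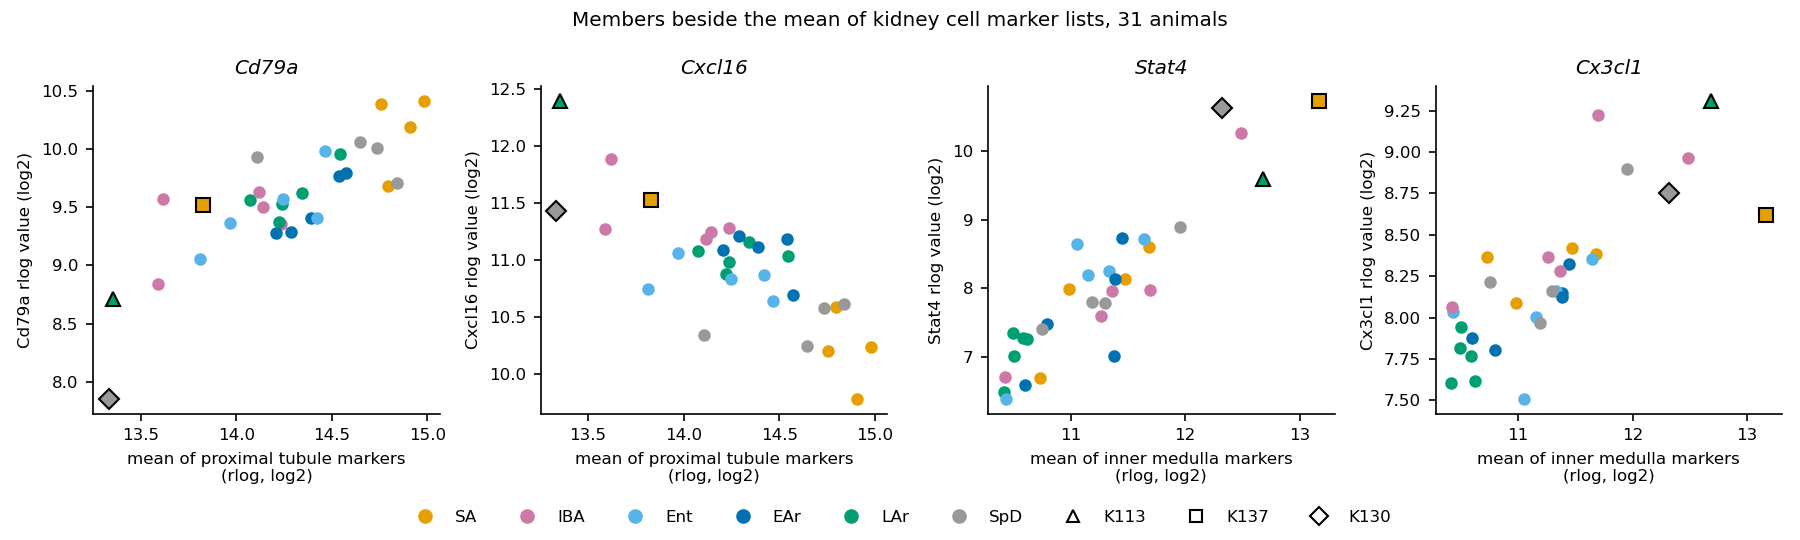
Rlog values (log2) of Cd79a, Cxcl16, Stat4, and Cx3cl1 (vertical axes) beside the mean rlog value of proximal tubule or inner medulla markers (horizontal axes), 1 point per animal, colored by state. Cd79a was higher and Cxcl16 lower where proximal tubule markers were higher, and K113, K137, and K130, outlined in black, were 3 of the 4 animals with the highest Stat4.

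The mean of the proximal tubule list also varied between states. It ran from 14.76 to 14.98 in the 4 SA animals, from 13.59 to 14.24 in IBA, and from 14.07 to 14.54 in LAr, so that SA lay above both. Of its 12 markers, 6 had q under 0.05 across states (all genes 46.1%) and none under 0.001 (all genes 9.34%), with Slc7a13 1.82 (-1.82, q = 0.00439), Slc34a1 1.59 (-1.59, q = 0.00278), and Slc4a4 1.26 (-1.26, q = 0.00303) lower in IBA than in SA. Lrp2 differed less, with IBA minus SA of -0.46 (q = 0.298). The inner medulla mean ran from 10.42 to 10.62 in LAr, where Stat4 and Cx3cl1 were lowest, and from 10.43 to 12.48 in IBA, where K104 held both the highest list mean and the highest Stat4. The part of these differences in the members' state means was not tested.

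The genes most like each member over the 29 animals were found by Pearson's r among genes with a symbol. For Cd74 these were HLA-DQA1 (0.968), HLA-DQB1 (0.958), and Laptm5 (0.955), a lysosomal protein of leukocytes. For Cd79a they were Pth1r (0.914), the parathyroid hormone receptor, Akr7a2 (0.905), and Miox (0.898), an enzyme of inositol breakdown in the proximal tubule. Those for Stat4 were Slco3a1 (0.939), Mrps6 (0.939), and Papss2 (0.933). Csf1 was most like Itga5 (0.909), Icam1 (0.889), the leukocyte adhesion molecule, and Osmr (0.864), and Cx3cl1 most like Actn1 (0.888), Pik3cd (0.884), and Emp2 (0.877). Cxcl16 was most like Ric8a (0.846), Lgals3 (0.843), and Exoc3 (0.816), Ccl16 most like Hsd17b12 (0.846), Folh1b (0.828), and Hapln4 (0.799), and Cxcl12 most like DHRS4 (0.821), Gpd1 (0.819), and Pde8a (0.81). Among the members themselves the closest pair was Cx3cl1 and Csf1 (r = 0.854), and the most opposed were Cxcl16 and Ccl16 (-0.662), Cxcl16 and Cd79a (-0.648), and Cd79a and Stat4 (-0.638). Ccl16 entered the table through SA alone and held the lowest value of any gene in 18 animals, so its r values are descriptions. Its Spearman's rho was 0.677 with Hsd17b12, 0.678 with Folh1b, and 0.655 with Hapln4.

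Of the macrophage and dendritic cell genes 11 of 26 listed were in the table, against 1 of 12 for neutrophils and 8 of 30 for genes of all leukocytes. Of the 11, 4 had q under 0.05, a share below the 46.1% of all genes, and Zbtb46, a dendritic cell factor (q = 0.000308), and Fcer1g, an Fc receptor chain (q = 0.000601), were called at 0.001. Fcer1g was 0.59 lower in the hibernation states than in SA and SpD (-0.59, q = 0.000136). Among genes of all leukocytes, Coro1a, an actin regulator, was 0.99 lower in Ent than in IBA (-0.99, q = 0.00817) and 1.22 higher in IBA than in LAr (q = 0.0031), and 4 of 8 had q under 0.05, near the share over all genes. Coro1a had the largest of these differences, and the medians over the 8 genes were -0.216 and 0.463. Evl (-0.443, q = 0.218) and Itgb2 (-0.54, q = 0.132), the latter named after its values were seen, were lower in IBA than in LAr. The neutrophil gene found, Ltf, ran from 6.23 in LAr to 7.57 in SA (q = 0.111). The mean of the 11 macrophage and dendritic cell genes ran from 8.37 to 8.77 in SA, 8.17 to 9.21 in IBA, 8.05 to 8.36 in LAr, and 7.95 to 8.62 in SpD, with K7 at the top of IBA and K84 at the top of SpD.

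Endothelial cells and fibroblasts can also make several of these chemokines and Csf1. Against 46.1% of all genes, 7 of 13 endothelial markers, 5 of 13 fibroblast and mesenchymal markers, and 9 of 12 tubule injury genes had q under 0.05 across states. Of the endothelial markers, Egfl7 (q = 0.000475) and Plvap (q = 0.000706) were called at 0.001. Plvap was 0.50 lower in the hibernation states than in SA and SpD (-0.50, q = 0.000346). No fibroblast or mesenchymal marker was called at 0.001, and Fn1 was 0.92 lower in the hibernation states (-0.92, q = 0.00144). The tubule injury genes with q under 0.05 included Icam1, which was 0.79 lower in Ent than in IBA (-0.79, q = 0.01), and Havcr1, which was 1.42 lower in Ent than in IBA (-1.42, q = 0.0151). Nfkbia (0.026, q = 0.884) and Sox9 (-0.064, q = 0.786), also with q under 0.05 across states, differed little between Ent and IBA. The median of Ent minus IBA over the 12 genes was -0.465.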

How the data were processed

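Kidney RNA of 31 animals in 6 states was measured by sequencing of polyadenylated RNA. After trimming (cutadapt) and removal of reads from the mitochondrial genome (HISAT2), the authors used Salmon with transcripts of the HiC_Itri_2 assembly, summed transcripts to genes, and kept genes whose rlog value was 7 or more in 4 animals of any state. The authors deposited log2 values made with DESeq2 (rlog), from which they had removed the batch effect with limma. Counts and depths are not part of this table.

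From these values, a linear model of all 12863 genes was fitted (limma 3.58.1, R 4.3.3) with state, sex, and experiment as terms, an intensity trend, and Benjamini-Hochberg adjustment over all genes, at q under 0.001, with 0.05 given beside it. It takes the place of the authors' test on counts. The model was tested on simulated data. The batch had been removed from the values before the fit, and the term for experiment still takes its degree of freedom in the model. Tests are two-sided, intervals are 95%, and p-values set each difference against the spread between animals. That spread is pooled over the states and moderated across genes. Replicates are separate animals.

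The members and the 18 marker lists were chosen with earlier results of these data known. Besides the members and their receptors and proteases, at most 4 genes of each list with the lowest q, the 3 genes most like each member, and 4 markers for K113, K137, and K130 are named, other genes being said to be named after their values were seen. All 10 symbols occur in RefSeq's annotation of another assembly (mIctTri1.hap1) than that of the files, and positions and sequences are not given for this reason. K136 was not analysed here, and 1 gene of the lists is not reported here. The relations with marker lists were added after the data were seen. The fit was repeated with all 31 animals, with 28, without the term for sex or that for experiment, without the trend, with a robust prior, in experiment 2 alone, after median centering, for genes with a mean of at least 8, at q under 0.05, and with each animal left out. Plots used matplotlib 3.10.9 (Python 3.11.15).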

Additional observations from a re-analysis of the deposited data

Results flagged for a closer look

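Of 48 sets of values, 8 members in 6 states, 11 held an animal far from the others of its state, where chance gives about 1 in 20 and 9.93% of the same sets over all genes held such an animal. For Cxcl16 these were K7 of IBA (11.88), K154 of EAr (10.70), and K113 of LAr (12.39). Ccl16 had K4 of IBA (7.11). Cxcl12 had K130 of SpD (11.83), and so did Cd79a (7.85). Cx3cl1 had K113 (9.31), and Csf1 had K8 of Ent (8.12). Cd74 had K84 of SpD (12.10). Stat4 had K167 of Ent (6.39) and K113 (9.59). K113 accounts for 3 of the 11 and K130 for 2, and both lay apart over all genes as well.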

How the results depend on the processing

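The differences with q under 0.05 kept their sign under every alternative in which they were tried. Those of EAr minus IBA and SpD minus LAr were tried only with all 31 animals and without K130. Some differences that missed 0.05 did not keep their sign, such as Stat4 in IBA minus SA, 0.50 in the 29 animals and -0.043 with all 31, and Cxcl12 in SA minus SpD, 0.30 and -0.215 without K130. The counts that follow include Ccl16, which entered the table through SA alone, so its part in them is a description. Over the 6 states the count of members called was 2, and it was 0 with all 31 animals, 1 in experiment 2 alone, 1 among genes with a mean of at least 8 (where Ccl16 and Stat4 were not tested), and 6 at q under 0.05. Leaving out 1 animal gave 1 to 3 calls, 1 without K139, K140, or K141 and 3 without K130, K84, or K171. For IBA minus SA the 2 calls became 0 with all 31 animals, 1 in experiment 2, 1 at a mean of at least 8, and 4 at q under 0.05, with 1 to 3 when 1 animal was left out (1 without K104, K171, K139, K140, or K141, 3 without K130). For EAr minus SA they became 0 with all 31 animals, 1 without the sex term, and 1 at a mean of at least 8, and 0 to 2 with 1 animal left out (0 without K139, K140, or K156, and 1 without any of 15 others). For LAr minus SA they became 1 with all 31 animals, without the sex term, and at a mean of at least 8, 4 at q under 0.05, and 1 to 3 with 1 animal left out (1 without K109, K111, K112, K115, K139, K140, or K141, 3 without K84). For the hibernation states against SA and SpD they became 0 with all 31 animals and in experiment 2, 1 at a mean of at least 8, and 4 without K113, K137, and K130, with 1 to 4 when 1 animal was left out (4 without K130, where Cxcl12 and Cd79a were added, and 1 without K139, K140, K141, K3, or K6). Cxcl16 in IBA minus SA lay between 0.923 and 1.30 over 39 alternatives, with a highest q of 0.0415 in all 31 animals and of 0.000553 with 1 animal left out. The fit of experiment 2 has fewer animals. Other causes of these changes were not tested. No member had a second row to try. No paired analysis was possible because each animal belongs to 1 state and has a number of its own. Depth limits are unknown without counts.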
